A study of Mus musculus with 18 samples.

Results

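The surface molecules with which a B cell shows that it has been activated and speaks to T cells were followed here in the transcriptomes of lupus-prone mouse B cells, from 18 libraries that each listed 23420 genes. The 9 genes were chosen by symbol, with earlier results of these data known, and all 9 were listed in every library. They were the B7 family ligands Cd80, Cd86 and Icosl, the activation markers Cd83, Cd69 and Cd44, the adhesion ligand Icam1, and Slamf1 and Slamf7 of the SLAM family. All 9 also passed the filter on low values, which asked for at least 3 libraries of the fit above 0 log2 CPM (log2 of the reads of a gene scaled to the size of its library).

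Splenic B cells came from 5 to 7 week old MRL/lpr mice, a strain whose Fas mutation brings on a lupus-like disease, and had been enriched with beads by removing other cells. In the CpG arm all mice were female and Tlr7-/-. The labels give this age range for both arms, while the methods give the females as all of the youngest age, so that age may differ between the arms. They carried either one functional copy of Tlr9 (Tlr9+/-, called Tlr9het) or the chimeric allele Tlr997, which was placed in the Tlr9 locus and joins the DNA-sensing part of TLR9 to the signaling TIR domain of TLR7. These cells were left unstimulated or given CpG, a DNA agonist of TLR9, at 10 µg/ml for 4 h. In the other arm male Tlr9-/- mice carried Tlr779, in which TLR7 has the TIR domain of TLR9, and the cells were left unstimulated or given CL097, a TLR7 agonist, at 5 µg/ml for 4 h. Each of the 6 groups had 3 libraries from 3 mice per genotype, and the labels do not say whether libraries with the same number came from one mouse. The main fits held no term for the mouse, and fits with the replicate number as a block are given at the end. One protocol text calls the Tlr9het mice Tlr9-/-, and the titles and descriptions, which say Tlr9+/-, were followed. Both chimeric alleles were made in the germline at the endogenous loci and act in every cell type that uses them. The study took Tlr9+/- mice as the control to match the amount of receptor protein, and gives TLR779 protein as lower than wild type TLR7. Mice with wild type Tlr7 were not analysed here, so that the CL097 response had no control genotype.

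The deposited log2 CPM summed to between 991992 and 1004412 CPM per library, and libraries of one group correlated at 0.94 to 0.99 over 11676 genes. The read depth of each library was unknown, so that no counting error could be given. Female libraries had Xist at 8.46 to 9.99 log2 CPM and male libraries at -3.36 to -1.83. Tlr7 in the Tlr9het libraries was at 2.68 to 3.48 log2 CPM without and 4.11 to 4.28 with CpG. In Tlr997, also Tlr7-/-, it was at 4.81 to 5.185 without and 5.33 to 5.36 with CpG, and in Tlr779 at 6.61 to 7.82. Tlr9 without and with CpG was at 7.28 to 7.48 and 7.93 to 8.08 in Tlr9het. In Tlr997 it was at 7.015 to 7.06 and 7.18 to 7.555. The 2 genotypes thus lay apart in the values of both genes, and why was not tested. The Tlr997 allele carries the coding sequence of the TLR7 TIR domain, so that reads of its transcript can be counted as Tlr7. The Tlr7 values in Tlr997 are therefore not a measure of the mRNA of the Tlr7 gene alone. Tlr9 was at 6.93 to 7.47 log2 CPM in the Tlr779 libraries, which are labelled Tlr9-/-, and a total per gene does not show which exons were read, so that it did not check either deletion or the chimeras.

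A naive T cell needs a second signal beside its antigen receptor. CD80 and CD86 give it through CD28 and are bound more tightly by the inhibitory receptor CTLA-4, while ICOS ligand, the product of Icosl, acts through ICOS and is needed for help by follicular T cells. CD83 steadies MHC class II and CD86 on the cell surface, CD69 is an early activation antigen that draws the exit receptor S1PR1 into the cell, CD44 binds hyaluronan, and ICAM-1 is the ligand of the integrin LFA-1. SLAMF1 and SLAMF7 bind copies of themselves on neighbouring cells. Textbooks count CD80, CD86, CD69, CD44 and ICAM-1 among the surface proteins that rise on B cells after TLR stimulation, and mRNA, not protein, was measured here.

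The 2 SLAM genes are neighbours. Slamf1 lies at chr1:171767131-171801184 on the plus strand and Slamf7 at chr1:171632403-171653037 on the minus strand (RefSeq, GRCm38.p6, the assembly of mm10). Cd80 at chr16:38457430-38495958 (plus strand) and Cd86 at chr16:36568956-36666158 (minus strand) share chromosome 16. The other members are at chr13:43785112-43803133 (Cd83, plus strand), chr6:129267324-129275375 (Cd69, minus strand), chr2:102811141-102901669 (Cd44, minus strand), chr10:78069368-78079525 (Icosl, plus strand) and chr9:21015940-21028814 (Icam1, plus strand). Exons of Icam1 share 511 of 4360 bases with the antisense gene Gm47079, and those of Slamf7 share 423 of 4577 bases with the antisense gene Gm37787, which the files do not list. The strand setting of the read counting is not given in the sources used here, so that reads of these pairs may not be separated.

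Promoter windows, from 250 bases before to 50 bases after a start site, were at hand from RefSeq (GRCm38.p6) for 6 members: Cd80, Cd44, Icosl, Icam1, Slamf1 and Slamf7. Each was searched on both strands for an NF-kB pattern (GGGA, any 4 bases, CC), an interferon element (TTTC, any 2 bases, TTTC) and an AP-1 pattern (TGA, any base, TCA, which reads the same on both strands). Stretches before the start site are shown for the member that rose most, Slamf1, for the 2 members that rose and hold an AP-1 match, Slamf7 and Cd80, and for Icosl, which fell. Capitals mark the matches.
Slamf1: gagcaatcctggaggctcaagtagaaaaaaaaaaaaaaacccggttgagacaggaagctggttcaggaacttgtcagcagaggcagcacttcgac
Slamf7: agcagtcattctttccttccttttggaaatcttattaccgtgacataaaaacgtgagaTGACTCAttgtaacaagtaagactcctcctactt
Cd80: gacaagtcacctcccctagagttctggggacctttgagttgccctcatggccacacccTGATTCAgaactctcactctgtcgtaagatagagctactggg
Icosl: ggtggccggaGGGATGGGCCgagggcggga
These are chr1:171767032-171767126 (plus strand), chr1:171649008-171649099 (minus strand), chr16:38458833-38458932 (plus strand) and chr10:78069287-78069316 (plus strand). The start sites used for Slamf7 and Cd80 lie inside the gene spans given above, so that their stretches lie within these genes and before a start site that is not the outermost. The AP-1 matches of Slamf7 and Cd80 both lie at -42 to -36 from the start site used, and the NF-kB match of Icosl at -71 to -62. Cd80 had a further NF-kB match at -210 to -201, and no pattern was matched in the windows of Cd44, Icam1 and Slamf1. Of 32851 mouse promoter windows, 20.7% hold the NF-kB pattern, 3.44% the interferon element and 7.81% the AP-1 pattern. A match is a string of letters and was not tested as a binding site.

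To learn which of these genes answered CpG through TLR9, stimulated and unstimulated Tlr9het B cells were compared. Of the 9 genes, 7 rose and 2 fell. Slamf1 rose 25.0-fold, Slamf7 5.72-fold, Cd44 4.61-fold and Cd69 4.12-fold, followed by Icam1 at 2.95-fold, Cd80 at 2.87-fold and Cd83 at 2.12-fold. Icosl fell 2.35-fold and Cd86 fell 1.51-fold. Calls required a log2 fold change over 0.5 either way and a Benjamini-Hochberg adjusted p under 0.05 (limma, 11494 genes). In this comparison 29.7% of all genes tested were called higher and 28.2% lower, so that a call by itself was common. In bulk RNA fewer cells of a type and less RNA per cell cannot be told apart. The median log2 fold change of the 9 genes was 1.56, beside 0.04 over all genes tested, and the median of the absolute values was 1.56 beside 0.72. Since the 9 were chosen with earlier results of these data known, their medians, here and in the other responses below, are descriptions and test nothing.

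**Figure D1:**
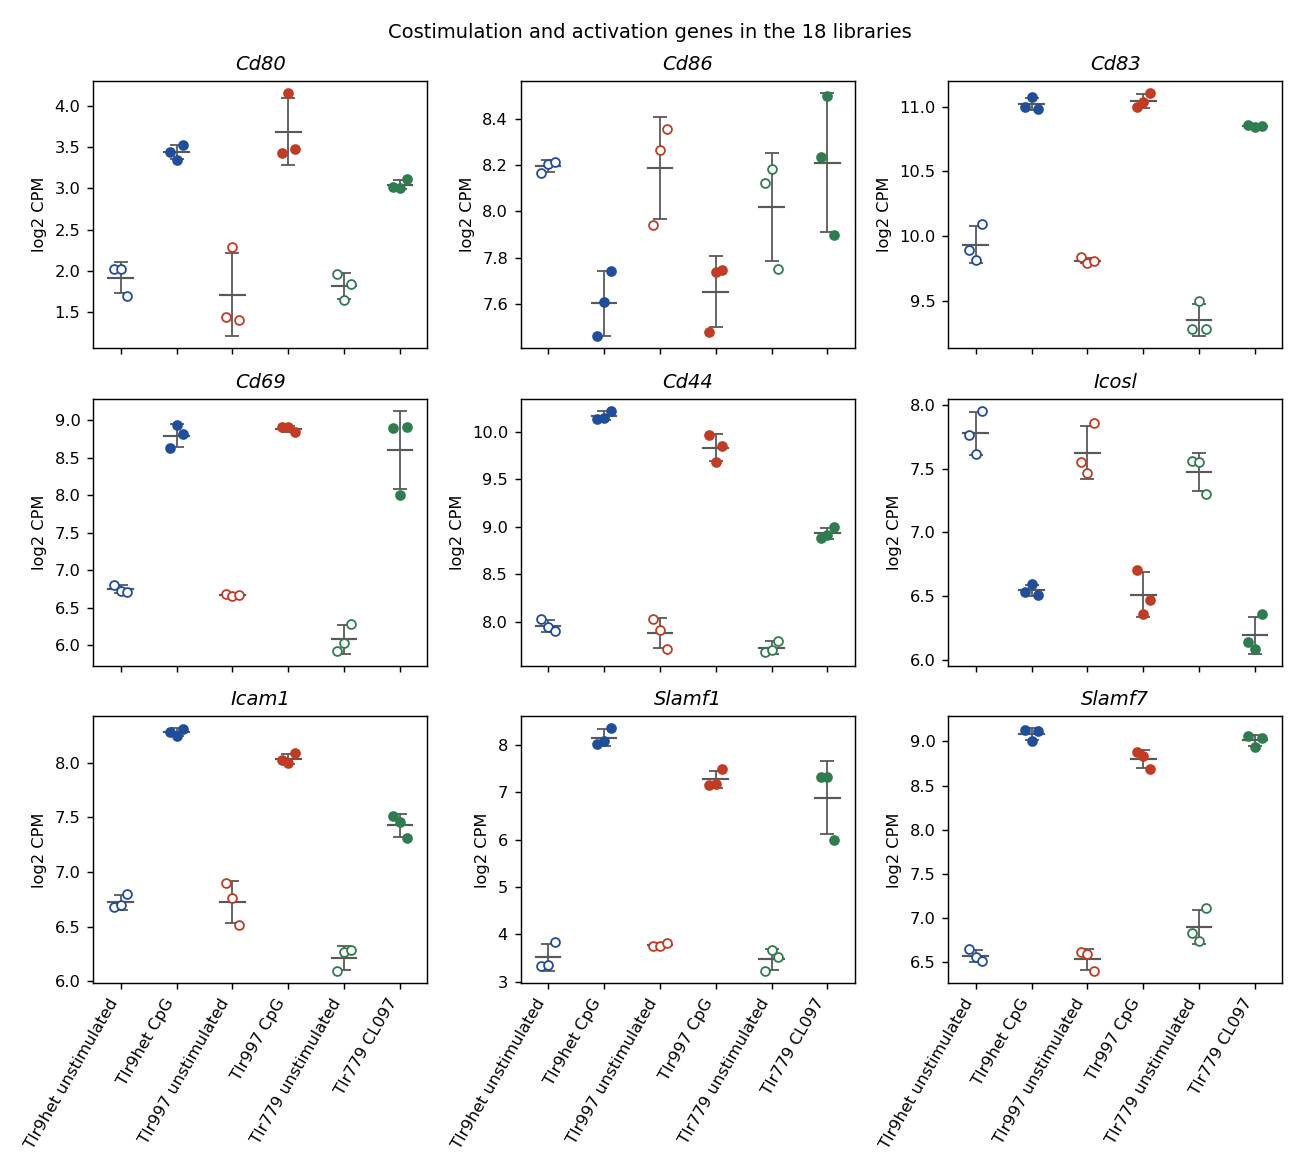
Level of the 9 genes (log2 CPM, one panel per gene, each with its own vertical scale) in the 6 groups. Points are libraries, open without and filled with agonist, and bars give the mean and SD of 3 libraries. Agonist-treated and unstimulated libraries lie apart for every gene in every genotype, except for Cd86 in Tlr779. How many of all genes lie apart in this way was not counted.

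Slamf1, whose product is the self-ligand CD150, was low before CpG and abundant after it. The 3 unstimulated Tlr9het libraries had 3.34, 3.35 and 3.84 log2 CPM and the 3 CpG libraries 8.02, 8.09 and 8.36. The log2 fold change was 4.64 (SE 0.14, adjusted p = 7.26e-12 by limma), and it ranked 34 from the top of the 11494 genes tested. Slamf7, the product of which is also called CRACC, stood at 6.64, 6.56 and 6.50 log2 CPM without CpG and at 9.13, 9.01 and 9.12 with it. Its log2 fold change was 2.52 (SE 0.07, adjusted p = 5.74e-12 by limma). The libraries of both genes fell into 2 sets with a wide gap between them.

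Cd44 and Cd69, both classical activation antigens, rose by about the same amount in Tlr9het cells. Cd44 went from 8.03, 7.94 and 7.90 to 10.13, 10.15 and 10.22 log2 CPM, a log2 fold change of 2.21 (SE 0.08). Cd69 went from 6.81, 6.73 and 6.71 to 8.63, 8.93 and 8.82 log2 CPM, a log2 fold change of 2.04 (SE 0.07). In neither gene did the unstimulated and CpG libraries come near each other. Icam1 rose from between 6.68 and 6.80 to between 8.25 and 8.32 log2 CPM, a log2 fold change of 1.56 (SE 0.08). Cd83 was the most abundant of the 9 before and after CpG, and rose from between 9.82 and 10.10 to between 10.98 and 11.07 log2 CPM, a log2 fold change of 1.08 (SE 0.07).

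The 3 ligands that engage CD28 and ICOS did not move together. Cd80 rose, but from a low level: it was at 2.02, 2.02 and 1.70 log2 CPM without CpG and at 3.44, 3.35 and 3.52 with it, a log2 fold change of 1.52 with the widest error of the 9 (SE 0.25, adjusted p = 1.08e-04 by limma). Cd86 was abundant in unstimulated cells and went down, from 8.16, 8.20 and 8.21 to 7.46, 7.61 and 7.74 log2 CPM. The log2 fold change of Cd86 was -0.59 (SE 0.11, adjusted p = 1.99e-04 by limma), only just past the 0.5 threshold. Icosl went down from 7.76, 7.62 and 7.95 to 6.54, 6.59 and 6.51 log2 CPM, a log2 fold change of -1.23 (SE 0.11, adjusted p = 2.99e-07 by limma). For both, every CpG library lay below every unstimulated library.

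Levels between genes were compared per kilobase of exon, since longer mRNAs give more reads. Before CpG, Cd83 in Tlr9het cells stood at 381 CPM per kb (geometric mean of 3 libraries), Cd86 followed at 80.03 CPM per kb and Icosl at 47.5 CPM per kb. Next were Cd44 at 36.7, Icam1 at 24.2, Slamf7 at 20.7 and Cd69 at 16.5 CPM per kb. Slamf1 at 1.85 and Cd80 at 1.02 CPM per kb came last. After CpG, Cd83 still led at 806 CPM per kb, but Cd44 at 170, Slamf7 at 119, Icam1 at 71.5 and Cd69 at 68.1 CPM per kb had passed Cd86 at 53.1 CPM per kb. Slamf1 at 46.3 CPM per kb had passed Icosl at 20.2 CPM per kb, and Cd80 at 2.92 CPM per kb remained last. The neighbours Icam1 and Cd69 after CpG differed by less than the SD of Cd69, which was 0.15 on the log2 scale.

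The same comparison was made in Tlr997 cells, in which CpG signals through the TIR domain of TLR7. Again 7 genes rose and 2 fell, the same 9 genes in the same directions, where 29.6% of all genes tested were called higher and 26.0% lower. Slamf1 rose 11.4-fold, Slamf7 4.84-fold, Cd69 4.64-fold, Cd80 3.93-fold, Cd44 3.84-fold, Icam1 2.49-fold and Cd83 2.35-fold. Icosl fell 2.17-fold and Cd86 fell 1.45-fold. The median log2 fold change of the 9 was 1.94, beside 0.07 over all genes tested.

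In Tlr997 cells Slamf1 went from 3.75, 3.74 and 3.81 to 7.17, 7.18 and 7.49 log2 CPM. Slamf7 went from 6.60, 6.58 and 6.39 to 8.88, 8.84 and 8.68 log2 CPM. Cd44 went from 8.03, 7.91 and 7.72 to 9.97, 9.68 and 9.85 log2 CPM. In each of these 3 genes the lowest CpG library exceeded the highest unstimulated one by more than 1 on the log2 scale. Cd69 rose to between 8.84 and 8.91 log2 CPM, Icam1 to between 7.996 and 8.09, and Cd83 to between 10.996 and 11.10. Cd80 was at 1.44, 2.29 and 1.40 log2 CPM without CpG and at 3.43, 4.15 and 3.48 with it, where replicate 2 was the highest in both conditions.

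Cd86 in Tlr997 cells was at 7.94, 8.27 and 8.36 log2 CPM without CpG and at 7.48, 7.74 and 7.75 with it, and the groups did not overlap. Its log2 fold change of -0.54 (SE 0.11, adjusted p = 4.89e-04 by limma) fell short of the 0.5 threshold without unstimulated replicate 2 (-0.50), without unstimulated replicate 3 (-0.45) or without CpG replicate 1 (-0.45). Icosl was at 7.55, 7.47 and 7.86 log2 CPM without CpG and at 6.70, 6.36 and 6.47 with it, a log2 fold change of -1.12 (SE 0.11, adjusted p = 9.33e-07 by limma).

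**Figure D2:**
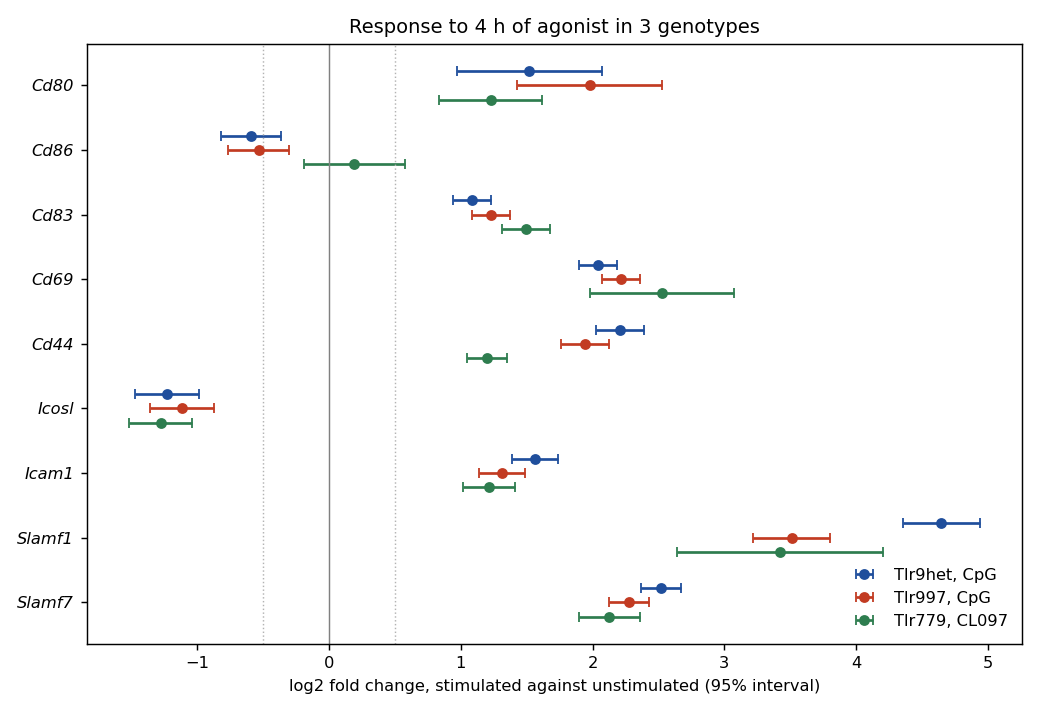
Log2 fold change of each gene on stimulation, with its 95% interval, in Tlr9het and Tlr997 cells given CpG and in Tlr779 cells given CL097 (3 libraries per group, dotted lines at 0.5 either way). Slamf1 has the largest change in each genotype, Icosl falls in all 3, and Cd86 falls with CpG and has an interval across 0 with CL097.

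In Tlr779 cells CL097 engaged a TLR7 receptor with the TIR domain of TLR9, and 7 of the 9 genes rose, 1 fell and Cd86 did not pass the test. Of 11082 genes tested, 22.7% were called higher and 23.6% lower. Slamf1 rose 10.7-fold, Cd69 5.76-fold, Slamf7 4.36-fold, Cd83 2.82-fold, Cd80 2.34-fold, Icam1 2.32-fold and Cd44 2.30-fold, and Icosl fell 2.43-fold. The median log2 fold change of the 9 was 1.23, beside -0.02 over all genes tested.

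Slamf1 varied most among these libraries. It was at 3.22, 3.67 and 3.52 log2 CPM without CL097 and at 7.33, 7.34 and 6.001 with it, so that replicate 3 lay more than 1 below the other 2 CL097 libraries. The log2 fold change was 3.42 (SE 0.34, adjusted p = 6.96e-05 by limma), and leaving out 1 library at a time moved it between 3.20 and 3.87. Cd69 was at 5.92, 6.02 and 6.29 log2 CPM without CL097 and at 8.89, 7.997 and 8.91 with it, and here replicate 2 was the low one. Its log2 fold change was 2.52 (SE 0.24, adjusted p = 5.04e-05 by limma), between 2.37 and 2.83 on leaving out 1 library. Both genes were called without any single library.

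Slamf7 was the steadier of the SLAM pair, at 6.82, 6.74 and 7.11 log2 CPM without and at 9.06, 8.94 and 9.04 with CL097. Cd83 reached 10.86, 10.84 and 10.85 log2 CPM from between 9.28 and 9.50. Cd44 rose from between 7.68 and 7.80 to between 8.88 and 8.999 log2 CPM, and Icam1 from between 6.09 and 6.28 to between 7.31 and 7.51. Cd80 rose from between 1.65 and 1.96 to between 3.00 and 3.11 log2 CPM. Icosl fell from 7.56, 7.55 and 7.304 to 6.14, 6.09 and 6.36 log2 CPM.

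Cd86 was the exception. Its 3 Tlr779 libraries had 8.12, 8.18 and 7.75 log2 CPM without CL097 and 8.24, 8.498 and 7.90 with it, and the groups overlapped. The log2 fold change was 0.19 with a 95% interval from -0.19 to 0.58 (adjusted p = 0.34 by limma). Each CL097 library lay above the unstimulated library of the same replicate number, by 0.11, 0.31 and 0.15 on the log2 scale, and in a fit with the replicate number as a block the adjusted p was 0.034 (limma), still under the 0.5 threshold.

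Set side by side, the log2 fold changes with CpG in Tlr9het, with CpG in Tlr997 and with CL097 in Tlr779 were 2.21, 1.94 and 1.2 for Cd44, 1.08, 1.23 and 1.495 for Cd83, and -0.59, -0.54 and 0.19 for Cd86. They were -1.23, -1.12 and -1.28 for Icosl. The CL097 arm differed from the CpG arm in agonist, dose, receptor, sex, perhaps age, and in the TLR that was deleted, so that these cannot be told apart, and no test between the arms was made.

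Whether the TIR domain mattered for these genes was asked by comparing Tlr997 with Tlr9het cells. Without stimulation none of the 9 genes was called (limma, 0 at an unadjusted p under 0.05), where 0.0174% of the 11494 genes tested, 2 genes, were called in either direction. The 95% interval of the difference stayed within 0.5 on the log2 scale either way for 7 of the 9. It reached 0.55 for Slamf1, which was higher in Tlr997 by 0.26 on average, and -0.75 for Cd80, the least abundant gene.

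With CpG, 1 of the 9 genes differed past both thresholds. Slamf1 was 1.84-fold lower in Tlr997 than in Tlr9het cells, with a log2 fold change of -0.88 (SE 0.14, 95% interval -1.17 to -0.58, adjusted p = 0.0025 by limma), where 1.26% of all genes tested were called higher and 1.47% lower. All 3 Tlr997 libraries, at 7.17 to 7.49 log2 CPM, lay below all 3 Tlr9het libraries, at 8.02 to 8.36. Leaving out 1 library at a time kept the call, with log2 fold changes from -0.98 to -0.78. The call was lost at a fold threshold of 1, and with all 18 libraries in 1 model (adjusted p = 0.068 by limma).

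Cd44 and Slamf7 were lower in Tlr997 by smaller amounts, with log2 fold changes of -0.33 (SE 0.08, adjusted p = 0.033 by limma) and -0.28 (SE 0.07, adjusted p = 0.035 by limma). These were under the fold threshold, and 3.01% of all genes tested were lower at an adjusted p under 0.05 whatever their size. For each gene the 3 Tlr997 libraries lay below the 3 Tlr9het libraries, but the adjusted p rose to 0.05 or more in 6 of 12 fits that left out 1 library, to at most 0.13 for Cd44 and 0.14 for Slamf7. Icam1 also lay lower in every Tlr997 library, with a log2 fold change of -0.24 (SE 0.08, adjusted p = 0.10 by limma). How many of all genes tested had the libraries of the genotypes apart, as these genes and Slamf1 did, was not counted.

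For the other 5 genes the difference with CpG did not pass the test. It was 0.03 for Cd83 (95% interval -0.12 to 0.17), 0.09 for Cd69 (-0.05 to 0.24) and 0.05 for Cd86 (-0.18 to 0.28) on the log2 scale. It was -0.03 for Icosl (-0.28 to 0.21) and 0.25 for Cd80 (-0.30 to 0.80). All 5 intervals included 0, that of Cd80 was the widest, and none reached the -0.88 of Slamf1.

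**Figure D3:**
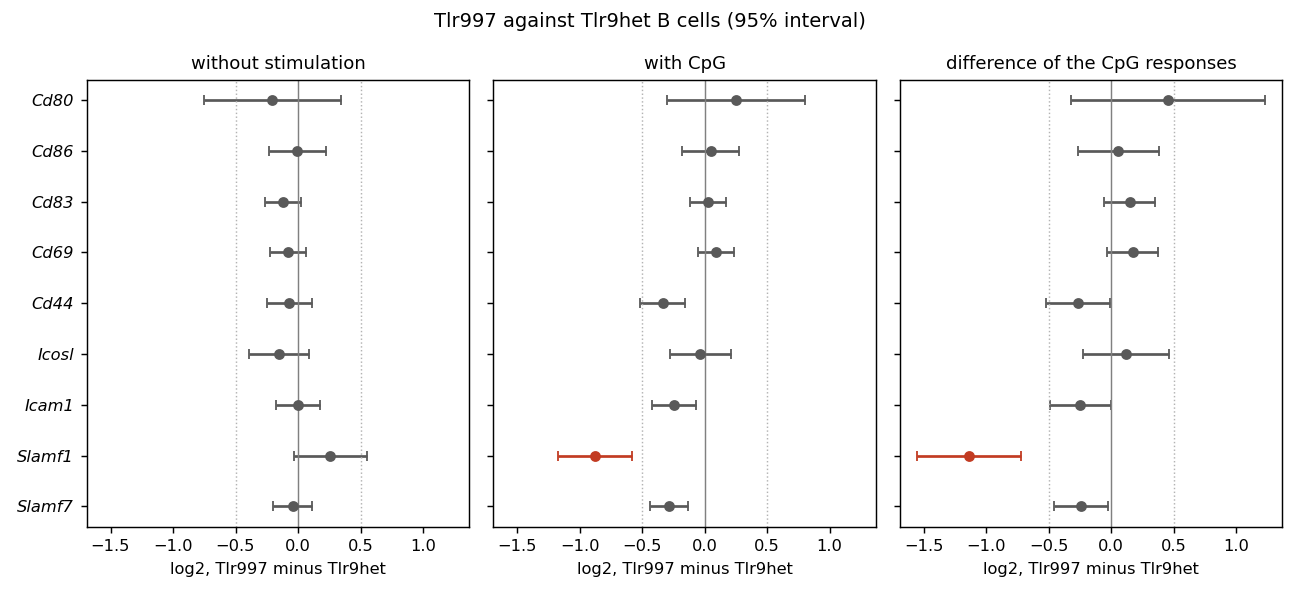
Difference between Tlr997 and Tlr9het B cells (log2, with 95% intervals) without stimulation, with CpG, and in the response to CpG. Red marks a gene past both thresholds, dotted lines are at 0.5 either way. Slamf1 is the red gene, at -0.88 with CpG and -1.14 in the difference of responses, and no gene is red without stimulation.

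The difference of the responses themselves was tested as an interaction. Slamf1 rose less in Tlr997 than in Tlr9het by 1.14 on the log2 scale (a difference of -1.14, SE 0.19, 95% interval -1.55 to -0.72, adjusted p = 0.0093 by limma), where 0.687% of all genes tested were called higher and 0.853% lower. By replicate number, the rises of Slamf1 were 4.68, 4.75 and 4.51 in Tlr9het and 3.42, 3.44 and 3.67 in Tlr997. This call was lost with no filter on low values (adjusted p = 0.082 by limma) and with all 18 libraries in 1 model (adjusted p = 0.14). None of the other 8 passed. Cd44, Icam1 and Slamf7 had differences of -0.26, -0.25 and -0.24, with adjusted p-values of 0.29, 0.31 and 0.26 (limma). Cd80, Cd69, Cd83, Icosl and Cd86 had differences of 0.46, 0.17, 0.15, 0.12 and 0.06, with intervals that all included 0.

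The order of the 6 groups differed by gene. Slamf1 and Icam1 were highest in Tlr9het with CpG, then Tlr997 with CpG, then Tlr779 with CL097, and the Tlr997 and Tlr779 libraries overlapped for Slamf1 only. Cd44 had the same order with no overlap among the 3. Cd83 and Cd69 were highest in Tlr997 with CpG, which overlapped with Tlr9het with CpG. Icosl was lowest in Tlr779 with CL097, and the 3 stimulated groups overlapped in turn. Slamf7 in Tlr779 with CL097 overlapped with Tlr9het with CpG and lay above Tlr997 with CpG. Orders across the arms are descriptions, since the arms also differ in sex and agonist.

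Genes that followed the members most closely over the 12 libraries of the CpG arm were looked up by Pearson's r. Since 6 of these libraries were stimulated and 6 were not, any gene with a strong response has a high r, and the values are a description. The closest to Slamf1 was Polr2f, a subunit of RNA polymerases (r = 0.998). Jun, a subunit of AP-1, was the closest to Cd44 (r = 0.997) and the second closest to Icam1 (r = 0.998) after Nudc. Slamf7 ran with Nup107 and U2af1 (r = 0.999 and 0.998), Cd69 with Mki67ip and Abce1 (r = 0.997 each), Cd83 with Phf16 and Fam98a (r = 0.996 and 0.994), and Cd80 with Zbtb32 and Rabepk (r = 0.983 and 0.982). Among the genes that fell, Icosl ran with Gpr108 and with H2-Ob, a part of the MHC class II peptide editor H2-O (r = 0.994 and 0.993), and Cd86 with Sidt1 and Cyp4f13 (r = 0.983 and 0.982).

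Other genes of the same pathways were then read from 7 lists. Over all genes tested, 29.7%, 29.6% and 22.7% were called higher in the 3 responses, and 28.2%, 26.0% and 23.6% lower. The remaining B7 family ligands rose in all 3 responses, 3 of 3 tested in each, with medians of 2.00, 1.78 and 2.39 on the log2 scale. The ligands of the inhibitory receptor PD-1 led them. Cd274, which encodes PD-L1, went from between 6.17 and 6.32 to between 8.21 and 8.25 log2 CPM in Tlr9het cells, a log2 fold change of 2.00 (SE 0.10), with 1.78 in Tlr997 and 2.92 in Tlr779. Pdcd1lg2, which encodes PD-L2, had log2 fold changes of 2.45, 1.85 and 2.39. Neither was called between the genotypes.

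The other SLAM receptors and their adaptors went both ways. Of 6 tested, 2 rose and 2 fell in Tlr9het cells, 3 rose and 2 fell in Tlr997 cells, and 1 rose and 3 fell in Tlr779 cells. The shares over all genes tested are those given with the first list. Slamf6, the Ly108 self-ligand, fell from 7.09, 6.95 and 7.21 to 4.30, 4.46 and 4.39 log2 CPM in Tlr9het cells, with log2 fold changes of -2.70, -2.16 and -1.73 in the 3 responses. Cd84, another self-ligand of the family, had log2 fold changes of -1.58, -1.29 and -1.13. Cd48, a ligand of the family named here after its values were seen, rose in all 3 responses, with log2 fold changes of 0.57, 0.61 and 0.51. None of the 6 was called between the genotypes with CpG or in the difference of responses, and their median difference with CpG was 0.29.

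Of 7 genes of the other ICAMs, LFA-1 and its regulators, 2 rose and 5 fell in each CpG response, and of 8 tested in Tlr779 cells 2 rose and 4 fell. Over all genes tested, 29.7%, 29.6% and 22.7% rose in the 3 responses, and 28.2%, 26.0% and 23.6% fell. Rassf5, a Rap1 effector that activates LFA-1, had log2 fold changes of -2.93, -2.69 and -1.99, and Fermt3, the integrin activator kindlin-3, -1.94, -2.02 and -1.07. None was called between the genotypes.

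Proteins that remove the members from the surface were read as well. Of 7 tested, 2 rose and 3 fell in Tlr9het cells, 1 rose and 3 fell in Tlr997 cells, and of 6 tested 1 rose and 3 fell in Tlr779 cells. The shares over all genes tested are again those given with the first list. March1, a ubiquitin ligase that sends CD86 and MHC class II from the surface to lysosomes, fell from 7.53, 7.59 and 7.63 to 3.76, 3.56 and 3.52 log2 CPM in Tlr9het cells. Its log2 fold changes were -3.97, -4.60 and -2.82 in the 3 responses, so that its mRNA and that of Cd86 both went down with CpG. Between CpG-treated cells of the 2 genotypes March1 had a log2 fold change of -0.57, lower in Tlr997 (adjusted p = 0.043 by limma), but its difference of responses did not pass (adjusted p = 0.17). Adam10, a protease that sheds CD44 and ICOS ligand among others, had log2 fold changes of -1.21, -1.14 and -0.63.

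A list of 7 genes held partners of CD44 and CD69 and receptors related to S1PR1. Of these, 0 rose and 4 fell in each CpG response, and 2 rose and 4 fell with CL097. Over all genes tested, 29.7%, 29.6% and 22.7% rose in the 3 responses, and 28.2%, 26.0% and 23.6% fell. S1pr1, the exit receptor that CD69 binds, fell from 8.95, 9.11 and 9.004 to 6.38, 6.28 and 6.40 log2 CPM in Tlr9het cells, and from 9.03, 8.74 and 9.02 to 4.90, 5.41 and 4.85 in Tlr997 cells. With CpG it was lower in Tlr997 by 1.30 on the log2 scale (a log2 fold change of -1.30, adjusted p = 7.995e-05 by limma), and the difference of responses was -1.21 (adjusted p = 0.0041). Cd69 itself differed by 0.09. S1pr4, a related receptor, had log2 fold changes of -3.71, -4.19 and -2.94 in the 3 responses. S1pr3, also a related receptor, had log2 fold changes of -1.93 in Tlr9het and -1.44 in Tlr997 and was higher in Tlr997 with CpG by 0.55 (adjusted p = 0.041 by limma).

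Among 15 other surface antigens of activated B cells, 6 rose and 6 fell in Tlr9het cells, 7 rose and 6 fell in Tlr997 cells, and 5 rose and 3 fell with CL097. The shares over all genes tested are the same as for the list before. Il2ra, the alpha chain of the IL-2 receptor, had log2 fold changes of 3.68, 3.40 and 3.17. Cd2, an adhesion molecule, had -3.91, -4.14 and -1.69. Cd38, an ectoenzyme, was at 6.19, 6.22 and 6.30 log2 CPM in Tlr9het with CpG and at 5.64, 5.41 and 5.66 in Tlr997, a log2 fold change of -0.67 (adjusted p = 3.115e-04 by limma), and its difference of responses was -0.78 (adjusted p = 0.0028). Cd24a was lower in Tlr997 with CpG by 0.59 (log2 fold change -0.59, adjusted p = 0.045).

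**Figure D4:**
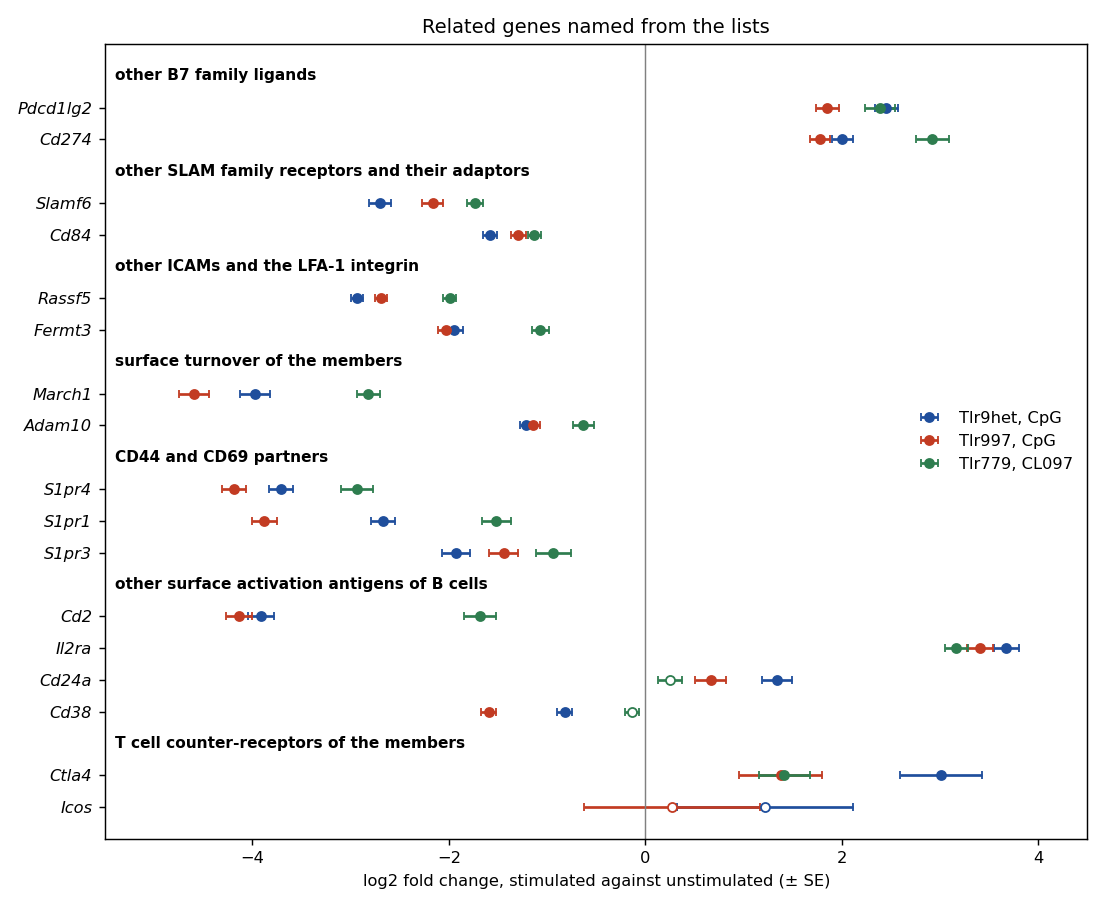
Log2 fold change on stimulation (± SE) of the genes named from the 7 lists, in the 3 responses. Filled points passed both thresholds, open points did not, and Icos was not tested in Tlr779. In Tlr9het March1, Cd2 and S1pr4 fall furthest, to between -3.97 and -3.71, and Il2ra rises furthest, by 3.68.

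The counter-receptors of the B7 ligands, known mainly from T cells, were also read. Ctla4 was at 0.25 log2 CPM on average in unstimulated and at 3.26 in CpG-treated Tlr9het cells (log2 fold change 3.01, SE 0.42). It rose by 1.38 in Tlr997 and by 1.41 in Tlr779 cells, and its difference of CpG responses did not pass (-1.63, adjusted p = 0.19 by limma). In Tlr9het the means of the T cell markers Cd3e and Cd8a also rose, from -0.08 to 1.55 and from 0.37 to 2.55. In Tlr779 Cd3e went from -0.46 to -2.74 and Cd8a from -0.75 to 1.23. The part of T cells in the rise of Ctla4 was not tested. Icos, at -0.63 and 0.59 log2 CPM in the same 2 Tlr9het groups, was not called in either CpG response, and Cd28 was not called in any. Of the 3 genes tested, 1 rose and 0 fell in each CpG response, and of 2 tested 1 rose and 0 fell with CL097. Over all genes tested, 29.7%, 29.6% and 22.7% rose in the 3 responses, and 28.2%, 26.0% and 23.6% fell. The median of the 3 in Tlr9het, 1.22, was the value of Icos (adjusted p = 0.24 by limma).

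Markers of other cells were summed in each library. The 8 T cell markers summed to 63.7 to 94.0 CPM in unstimulated and 86.9 to 126 in CpG-treated Tlr9het libraries, to 59.1 to 77.9 and 80.7 to 92.6 in Tlr997, and to 56.8 to 73.1 and 61.2 to 101 in Tlr779. Most of that was Lck, at group means of 5.74 to 6.42 log2 CPM, while Cd3e was at -2.74 to 1.55. The 9 macrophage and monocyte markers summed to 134 to 452 CPM over the unstimulated libraries and to 101 to 218 over the stimulated ones. The 7 dendritic cell markers summed to 32.3 to 46.1 and to 73.2 to 101 CPM, a rise carried by Zbtb46, with Xcr1 and Clec9a below 0 log2 CPM in every group mean. The 4 NK cell markers summed to at most 7.40 CPM, the 6 listed neutrophil markers to 19.0 to 173, the 5 plasma cell markers to 268 to 1036 and the 5 erythroid markers to 12.3 to 484 CPM, with Hba-a1 at the floor of -5.05 throughout.

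The 8 B cell markers, all expressed, summed to 6102 to 7945 CPM in unstimulated libraries, to 2125 to 2177 in Tlr9het with CpG, to 3132 to 3772 in Tlr997 with CpG and to 2808 to 3508 in Tlr779 with CL097. Cd79a and Cd79b carried most of that fall. Among the other markers, Ms4a1 went up in Tlr997, with group means of 10.16 log2 CPM unstimulated and 10.57 with CpG. Its Tlr9het mean was lower with CpG (9.31) than without (10.05), and its Tlr779 mean lower with CL097 (9.45) than without (10.23). Pax5 means were higher with CpG, at 7.385 against 6.84 in Tlr9het and 7.26 against 6.79 in Tlr997. Cd72 was also higher with CpG in Tlr997, at 8.65 against 8.25. The part of these shifts in the results for the 9 genes was not tested.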

How the data were processed

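Per the labels, RNA of bead-purified B cells was made into mRNA libraries, and the submitters' processing notes name FastQC 0.11.7, Trim Galore 0.6.5, STAR 2.6.1a, Subread 2.0.1 (featureCounts), limma and the build mm10. The authors deposited quantile normalized, voom-transformed log2 CPM, 1 file per library, with no counts. Of 6614 genes below -4 log2 CPM in all 12 libraries of the CpG arm, 6306 held 1 value per replicate number, and in 822 it differed between numbers, the pattern left when an offset per number is removed, a step the methods do not state. limma 3.58.1 (R 4.3.3) with a variance trend was applied to these values: 1 model with 4 group means for the CpG arm, another for the 6 Tlr779 libraries. Genes with at least 3 fitted libraries above 0 log2 CPM were tested. The script recovered known changes in simulated data with noise that was independent between libraries. These simulated data held no deviation shared by replicate number and no removed offset, so that they did not check the fits for either. No pseudocount was added, and voom's own offset understates changes of low genes.

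The members and lists were chosen with earlier results of these data known. All 9 members were described. From each list the 2 genes with the largest change with CpG in Tlr9het were named, and any called between genotypes with CpG or in the difference of responses. Likeness used genes averaging over 2 log2 CPM, 2 per member, of which 1 is not reported here. Cell type markers were 8 short lists. Same-numbered libraries deviated together in Tlr9het (r = 0.513, 0.287 and 0.509) and Tlr779 (0.252, 0.485 and 0.334), above 0.1 in every pair, but not in Tlr997 (0.373, 0.083 and 0.025). Alternatives covered filters, fold thresholds, the variance trend, library weights, the replicate block, library medians, the libraries fitted and each library left out.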

Additional observations from a re-analysis of the deposited data

Results flagged for a closer look

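A test of the difference between the CpG responses of the 2 genotypes marked 3 genes, 1 of the 9 members and 2 of 48 list genes tested. Over all genes tested, 1.54% were called in either direction. Slamf1 rose less in Tlr997 than in Tlr9het cells (difference of responses -1.14 on the log2 scale), a call lost with no filter on low values (adjusted p = 0.082 by limma) and with all 18 libraries in 1 model (adjusted p = 0.14). S1pr1 fell further (-1.21), and so did Cd38 (-0.78). S1pr1 and Cd38 were read from the main fit only and were not recomputed under the alternative settings. Groups of 3 libraries are too small for a test of single outlying libraries, so that Slamf1 in replicate 3 and Cd69 in replicate 2 of Tlr779 with CL097, at 6.001 and 7.997 log2 CPM, are given as values only.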

How the results depend on the processing

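Of 1143 recomputed values of single genes, 1132 kept their side of the threshold, 9 lost the call (Cd86 in 5 and Slamf1 in 4), 2 gained one (Cd44 and Slamf7) and 0 reversed a call. With CpG, the number of the 9 genes called between genotypes was 1; it was 0 at a fold threshold of 1, 3 with no fold threshold and 0 with all 18 libraries in 1 model, where Slamf1 had an adjusted p of 0.068. For the difference of responses the number was 1, but 0 with no filter on low values (Slamf1, adjusted p = 0.082) and 0 with all 18 libraries (adjusted p = 0.14). Across all alternatives the adjusted p of Slamf1 was 1.79e-04 to 0.068 with CpG and 4.61e-04 to 0.14 for the difference. At a fold threshold of 1 Cd86 was not called in either CpG response. Leaving out each library in turn gave 9 members called in Tlr9het, 8 to 9 in Tlr997, 8 in Tlr779, 0 between unstimulated genotypes, and 1 with CpG and for the difference.

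With the replicate number as a block, none of the 90 recomputed values changed its call, including a block across genotypes that was added after seeing the data because of the offset per number. Over all genes the block moved the count of calls in the difference of responses from 177 to 328, and the block across genotypes to 215. Without a block that count was 78 with no filter, 46 at a fold threshold of 1, 98 without the variance trend, 377 with library weights and 87 to 295 on leaving out 1 library. With CpG the 314 genes called became 188 with no filter, 74 at a threshold of 1, 680 with no fold threshold, 485 with library weights and 187 without Tlr9het CpG replicate 1. At a threshold of 1 the responses had 4058 of 6650, 3767 of 6388 and 2582 of 5135 genes. A fit without a block counts degrees of freedom that a removed offset would have used. Depth per library was unknown, with 3 libraries per group, and sex, perhaps age, agonist and receptor changed together between the arms.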
